A study of Mus musculus with 16 samples.

Results

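The 18S 5′ domain was taken as read-start positions 1 to 670 of 18S rRNA, the rRNA of the small ribosomal subunit, and its pseudouridines were read by Ψ-seq. The rule was position alone, and it gave 670 of the 6878 positions of the 4 rRNAs counted (18S, 28S, 5.8S and 5S). CD4 T cells were isolated from lymph nodes of female mice and activated for 20 h on anti-CD3/CD28 coated plates. Control animals were Rnmt fl/fl CD4cre - and Rnmt cKO animals were Rnmt fl/fl CD4cre +, so all animals carried the floxed Rnmt alleles and the CD4-driven Cre alone set the genotypes apart. Total RNA of each of 4 animals per genotype was split into an aliquot treated with 0.17 M CMC and a mock-treated aliquot, which gave 16 libraries. The counts cover rRNA alone, so neither the loss of Rnmt nor the identity of the cells was checked here.

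Pseudouridine is an isomer of uridine that is made in rRNA mostly by H/ACA box small nucleolar ribonucleoproteins, whose RNA component pairs with the site and whose enzyme, dyskerin, rotates the base. The 5′ domain forms the body of the small subunit and carries several of the conserved pseudouridines of mammalian 18S rRNA. CMC, a carbodiimide, leaves a stable adduct on pseudouridine that stops reverse transcriptase at the nucleotide just 3′ of it. RNMT methylates the guanosine cap of RNA polymerase II transcripts, among them the host transcripts of many small nucleolar RNAs, and the question of the comparison is whether its loss changes rRNA pseudouridine.

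The sequences around the sites described are shown because each stop can be placed on a base. They were read from an 18S rRNA copy annotated by GENCODE vM21 on GRCm38, chromosome 17, 39846353 to 39848201, where the annotated gene lies on the minus strand and the sequence shown is that of the plus strand. The copy is 1849 nt long against 1871 nt in the sequence that the counts refer to. Offsets between the numberings were fitted so that most positions with more stops in CMC fell on T. They were 0 nt for nucleotides 1 to 189, 6 nt for 212 to 307 and 5 nt for 346 to 669, and nucleotides between these stretches were not read. The offset of 5 had a check outside the domain, where it placed a T at 21 of 21 called sites of 18S rRNA against at most 10 with any other offset of up to 8 nt. The offsets of 0 and 6 had none, so the bases at nucleotides 34, 36, 93, 105, 109, 119, 220 and 222 are no independent result. T stands for uridine, and capitals mark the nucleotide just 5′ of each stop.
Nucleotides 34 and 36, chr17:39846376-39846398, plus strand: catatgcttgTcTcaaagattaa
Nucleotide 93, chr17:39846435-39846455, plus strand: aaactgcgaaTggctcattaa
Nucleotides 105 and 109, chr17:39846447-39846471, plus strand: gctcattaaaTcagTtatggttcct
Nucleotide 119, chr17:39846461-39846481, plus strand: ttatggttccTttggtcgctc
Nucleotides 220 and 222, chr17:39846568-39846590, plus strand: gatgcgtgcaTtTatcagatcaa
Nucleotide 408, chr17:39846755-39846775, plus strand: tgaccacgggTgacggggaat
Nucleotide 611, chr17:39846958-39846978, plus strand: agggcaagtcTggtgccagca
Nucleotide 653, chr17:39847000-39847020, plus strand: atagcgtataTtaaagttgct

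The 16 libraries held 1130058 to 2165668 deduplicated read starts, of which 87147 to 189709 fell in the domain, and no position of the domain was at 0 in any library. The mock library of Control 1 stood apart. The domain took 32.8% of its 18S read starts, against 37.4 to 40.1% in the other 7 mock libraries and 37.1 to 38.4% in the CMC libraries. Its median termination over the domain was 0.859%, against 1.06 to 1.21% in the other mock libraries. The main results that rest on this library are also given without it.

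Termination at a position was the read starts there as a percent of the read starts in the 65 nt that end there. The PSU score was the CMC termination divided by the mock termination of the same animal, assigned to the nucleotide 5′ of the stop. The thresholds for a site were a CMC termination of 3% and a PSU score of 3, as means over the 4 animals of a genotype. In the domain 7 sites passed in control, at nucleotides 34, 93, 109, 119, 220, 222 and 611, and 5 of these passed in Rnmt cKO, where 93 and 611 missed the PSU score. The share of domain positions called in either genotype was 1.04%, and the background over all 6878 positions was 1.02%. The central domain of 18S (positions 671 to 1200) had 15 sites at 530 positions and the 3′ domain had 6 at 671. The median CMC termination of the 7 sites was 3.90%, against 6.30% and 7.06% in these domains, while the median PSU scores were 4.84, 5.78 and 5.29.

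**Figure D1:**
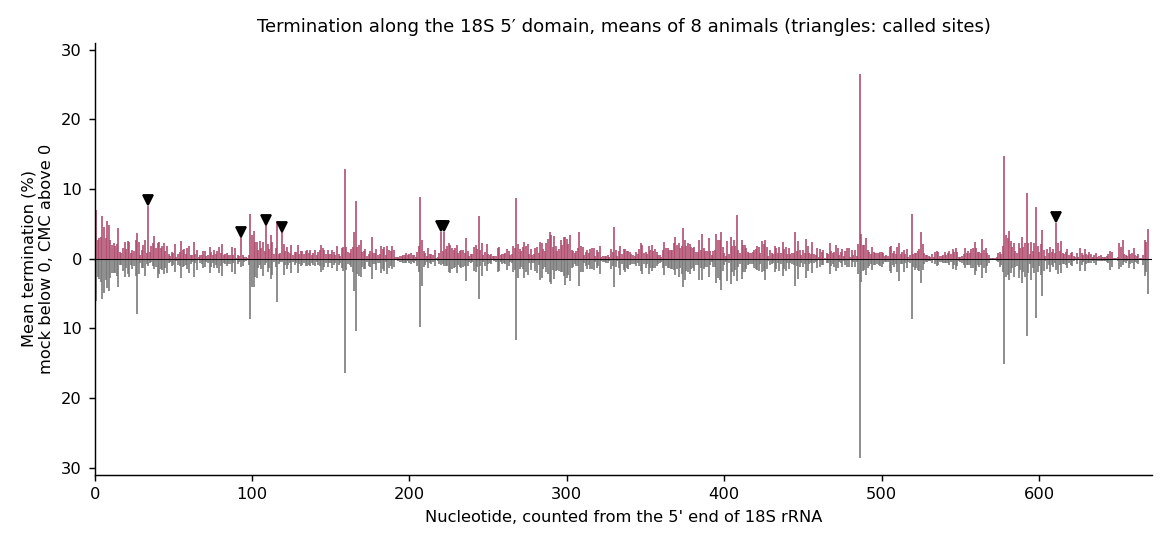
Mean termination in percent (vertical axis) at each nucleotide of the 18S 5′ domain (horizontal axis, nucleotides from the 5′ end), with the mean of 8 CMC libraries drawn above 0 and of 8 mock libraries below 0. Triangles mark the 7 called sites, whose stops rise above 0 without a matching stop below, while the tallest stop, at nucleotide 486, is present on both sides with 26.5% in CMC and 28.5% in mock libraries.

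The sites fell in 4 places: nucleotides 34 and 36, nucleotides 93 to 119, the pair 220 and 222, and nucleotides 611 and 653. From 223 to 610 no site was called over 388 nt. Uridines 34, 36, 93, 105, 109 and 119 are among the pseudouridines known in mammalian 18S rRNA. Of these, 36 and 105 were not called, and neither was 653. The CMC termination missed 3% at all of them, and in control the PSU score missed 3 at 105 and 653. These calls depended on the window that stands in for coverage, and that at 653 also on Rnmt cKO 1 and 4, since it was called without either of them. Nucleotides 105 and 653 were called with windows of 50 and 40 nt, which gave 9 sites each, and 36 as well with 30 nt, which gave 10. A shorter window raises termination against the fixed threshold of 3%, so these added calls are no further support for the sites.

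Nucleotide 34 had the strongest CMC-dependent stop of the domain. Its CMC termination was 7.81, 6.97, 7.67 and 7.76% in Control 1 to 4 and 8.01, 7.43, 8.03 and 6.90% in Rnmt cKO 1 to 4. Its mock termination lay between 0.876 and 1.11% in all 8 animals. The mean PSU scores were 7.53 ± 0.595 for control and 7.70 ± 1.23 for Rnmt cKO (SD, n = 4 each), and the genotypes overlapped in every measure.

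Nucleotides 109 and 119 scored as high on weaker stops. At 109 the PSU score was 8.82, 6.67, 6.81 and 7.79 in Control 1 to 4 and 6.69, 9.51, 6.63 and 7.04 in Rnmt cKO 1 to 4. At 119 it was 8.00, 7.40, 8.34 and 8.18 in control and 7.28, 10.6, 7.55 and 6.68 in Rnmt cKO. Rnmt cKO 2 had the highest score at both sites, and the other Rnmt cKO animals lay within or near the control range. The CMC terminations were 4.78 ± 0.540% and 3.78 ± 0.463% over the 8 animals, on mock terminations of 0.644 ± 0.0799% and 0.475 ± 0.0556%.

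By mean PSU score over the 8 animals the order was 119 (8.00), 34 (7.62), 109 (7.49), 220 (4.84), 36 (4.82), 222 (3.66), 653 (3.42), 611 (3.25), 93 (2.98) and 105 (2.98). Without Control 1 the means were 8.01, 7.54, 7.31, 5.03, 4.42, 3.70, 3.48, 3.04, 2.58 and 3.13 in the same sequence, which moved 105 above 611 and 93. The difference between 119 and 34 was 0.388 ± 1.39 (SD over 8 animals) and that between 34 and 109 was 0.122 ± 1.41, so neither was beyond the spread of the animals. The larger steps were 2.65 ± 2.32 from 109 down to 220, with 109 higher in 6 of 8 animals, and 1.16 ± 1.42 from 36 down to 222, with 36 higher in 7 of 8.

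**Figure D2:**
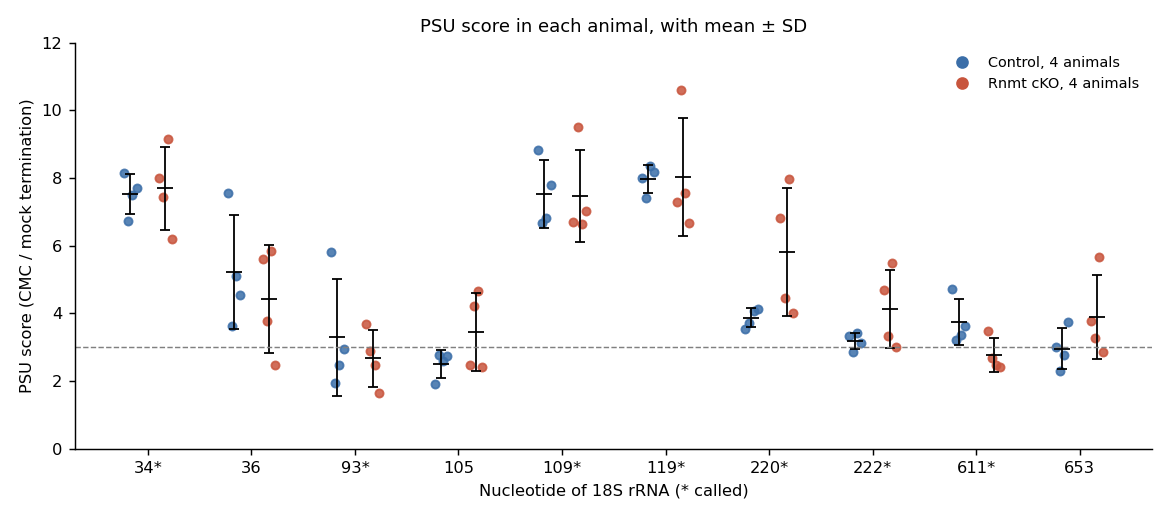
PSU score (vertical axis, CMC over mock termination) of each animal at 10 nucleotides of the 18S 5′ domain (horizontal axis), control in blue and Rnmt cKO in red, 4 animals each, with black bars for the mean ± SD. The dashed line is the score threshold of 3: all 8 animals lie above it at 34, 109, 119 and 220. Control 1 lies above the other controls at 34, 36, 93, 109 and 611, and below them at 105 and 220.

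Nucleotide 93 was the member nearest the thresholds. Its mean CMC termination and PSU score were 3.00% and 3.29 ± 1.73 in control, and 3.15% and 2.67 ± 0.852 in Rnmt cKO. The score was 5.82 in Control 1 and 1.94, 2.48 and 2.94 in Control 2 to 4, and Control 1 was the one control above 3. Its mock termination at 93 was 0.490%, against 1.15 to 1.41% in the other controls. The site was not called in either genotype without Control 1, and likewise without Control 3, without Control 4 or with the ratio of the mean terminations as the score.

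Nucleotide 36, next to 34, had a high score on a weak stop. Its CMC termination was 1.75, 1.60, 2.09 and 1.80% in Control 1 to 4 and 2.12, 1.87, 2.56 and 1.29% in Rnmt cKO 1 to 4. The PSU score averaged 4.82 ± 1.58 over the 8 animals, and 7 of 8 animals scored at least 3. The smallest count behind any value at these stops, 30 mock read starts in Control 1, was at this nucleotide and gave a mock termination of 0.232% (95% Wilson interval 0.162 to 0.331%, counting error only).

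Nucleotides 105 and 653 also lay below the CMC threshold. At 105 the mean CMC terminations of control and Rnmt cKO were 2.70% and 2.33%, with PSU scores of 2.51 ± 0.411 and 3.45 ± 1.16. At 653 they were 2.48% and 2.95%, with scores of 2.96 ± 0.606 and 3.89 ± 1.24. The genotypes overlapped in score at both. On the other side, nucleotide 38 passed the CMC threshold with 3.18% and 3.21% but scored 2.04 in control and 2.15 in Rnmt cKO.

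At nucleotide 611 the CMC termination was 5.26, 5.07, 5.55 and 5.58% in Control 1 to 4 and 5.64, 5.39, 4.60 and 3.96% in Rnmt cKO 1 to 4. The mock termination was 1.11 to 1.65% in control and 1.62 to 2.00% in Rnmt cKO. The resulting PSU score was 4.72, 3.22, 3.37 and 3.64 in control and 3.48, 2.69, 2.47 and 2.43 in Rnmt cKO. Rnmt cKO 2 to 4 lay below every control, and Rnmt cKO 1 lay inside the control range. The mean difference of -0.972 did not pass the test (limma, adjusted p = 0.599 over 70 sites), and without Control 1 it was -0.645.

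CMC was compared with mock at all 4026 rRNA positions whose mean termination reached 1%, with the animal as a block (edgeR quasi-likelihood test, 2-sided, Benjamini-Hochberg adjustment over all of them). In the domain 382 of the 670 positions were tested, and the other 288 were the first position, left out by rule, and positions under that level. Termination was higher in CMC at 54 of the 382 (14.1%) and lower at 23 (6.02%). The background over all tested positions was 11.5% higher and 10.2% lower. With TMM library sizes, which compared read starts without the window, the counts were 51 and 8. Higher positions then made up 86.4% of the calls instead of 70.1%. Without Control 1 the counts were 60 and 48.

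The called sites were chosen on the same libraries, so their changes are a description of size. The log2 changes were 2.99 ± 0.08 (SE) at 119, 2.92 ± 0.08 at 34, 2.89 ± 0.08 at 109, 2.19 ± 0.13 at 220, 1.82 ± 0.11 at 222, 1.67 ± 0.11 at 611 and 1.42 ± 0.16 at 93. Among positions not called as sites the largest were 36 with 2.17 ± 0.15, 653 with 1.70 ± 0.12 and 105 with 1.5 ± 0.12 (edgeR, adjusted p = 9.36e-07, 9.17e-07 and 5.70e-06). CMC termination exceeded mock in 8 of 8 animals at each of these 10 nucleotides.

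The other 44 positions higher in CMC had small changes, with a median log2 change of 0.39 and a maximum of 1.10. Nucleotides 37 and 38, just 3′ of 36, had the largest of these, 1.10 and 1.05. Next came nucleotide 408, in the stretch without called sites and named here after its value was seen. Its CMC termination was 6.08, 6.11, 6.51 and 5.79% in Control 1 to 4 and 7.38, 6.49, 6.12 and 5.64% in Rnmt cKO 1 to 4. Its mock termination was already 2.91 to 4.09%, so the PSU score was 1.77 to 2.23 although the CMC stop was higher in every animal than at 109 or 119. The log2 change was 0.95 ± 0.07 (edgeR, adjusted p = 1.31e-06).

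**Figure D3:**
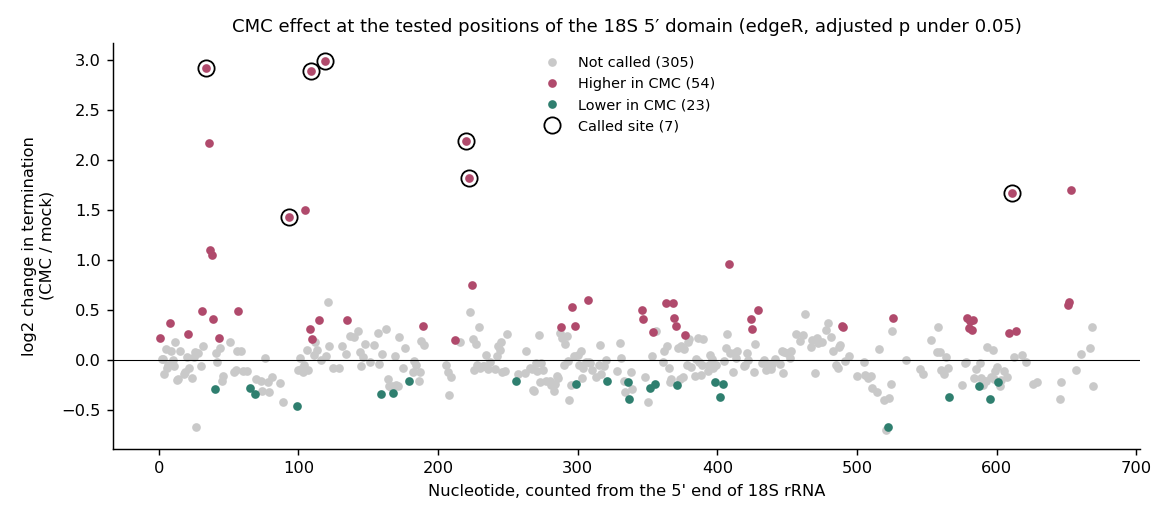
Log2 change in termination, CMC over mock (vertical axis), at the 382 tested nucleotides of the 18S 5′ domain (horizontal axis, nucleotides from the 5′ end), coloured by the edgeR call at an adjusted p under 0.05, with the 7 called sites circled. The 10 sites described stand at 1.42 or more, 408 at 0.95 is the highest point between 223 and 610, and the 23 positions lower in CMC lie between -0.68 and -0.21.

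The positions higher in CMC were mostly uridines, including those far below the site thresholds. In the stretch from 346 to 669, where the offset was checked on sites outside the domain, 23 of 26 such positions were T (88.5%), and 21 of 24 without 611 and 653 (87.5%). T made up 27.7% of the 173 positions tested there. Over all 3 stretches, with offsets fitted on these positions, it was 47 of 54 (87.0%), the others being 3 A, 3 C and 1 G, against 31.8% of the 358 readable tested positions. The 3 bases other than T with the largest changes, C at 37, A at 38 and A at 652, lay within 2 nt of nucleotides 36 and 653. Of the 20 readable positions lower in CMC, 12 were C, 7 were A and 1 was T. Without Control 1, 51 of 60 positions higher in CMC were T, as were 4 of 45 lower ones.

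Positions lower in CMC changed little. The 3 with the smallest p were 402, 168 and 352. At 402 the termination was 2.25 to 3.73% in mock and 2.03 to 3.16% in CMC libraries, lower in 8 of 8 animals, with a log2 change of -0.37 ± 0.07 (edgeR, adjusted p = 0.00303). The changes were -0.33 ± 0.07 at 168 and -0.28 ± 0.06 at 352 (edgeR, adjusted p = 0.00479 and 0.00817). At 168 the call was lost with TMM library sizes (adjusted p = 0.191) and with a window of 30 nt (adjusted p = 0.0898), and at 352 with a window of 30 nt (adjusted p = 0.0865).

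No difference in PSU score between genotypes passed the test at any of the 7 sites (limma over all 70 called sites of the 4 rRNAs, 0 of 70, a background of 0%). At an unadjusted p under 0.05 there was 1 of the 7, against 4 of 70 (5.71%). That was nucleotide 220, with scores of 3.54, 3.72, 4.08 and 4.13 in Control 1 to 4 and 6.82, 4.46, 7.97 and 4.02 in Rnmt cKO 1 to 4. Rnmt cKO 1 and 3 were far above the controls and Rnmt cKO 4 was inside their range. The difference was 1.95 (limma, adjusted p = 0.599, and 0.440 to 0.911 across the alternatives), and without Rnmt cKO 3 it was 1.23.

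The CMC termination at 220 and at 222 was higher in every Rnmt cKO animal than in any control. At 220 it was 3.14, 3.63, 3.44 and 3.75% in Control 1 to 4 and 4.34, 4.28, 4.30 and 3.97% in Rnmt cKO 1 to 4. At 222 it was 3.07, 3.34, 3.60 and 3.87% in control and 4.44, 4.47, 4.33 and 4.06% in Rnmt cKO. Groups failed to overlap in CMC termination at 8 of all 70 called sites (11.4%). The stops at 220 and 222 share most of their reading window and are not independent.

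These differences did not pass the adjustment. The log2 change was 0.27 ± 0.10 at 220 and 0.31 ± 0.10 at 222 (edgeR, adjusted p = 0.155 and 0.104 over 70 sites). Across the alternatives the adjusted p ranged from 0.0345 to 0.536 and from 0.0184 to 0.349. DESeq2 called both (adjusted p = 0.0434 and 0.0237), as did edgeR without Rnmt cKO 4 (adjusted p = 0.0345 and 0.0184). Over all 70 sites these settings called 2 (2.86%) and 6 (8.57%) higher in Rnmt cKO, and 1 lower each. Both had an unadjusted p under 0.05 and no other site of the domain did, where 11 of all 70 sites did (15.7%), and the edgeR call was made at 1 of 70 (1.43%), outside the domain.

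The mock terminations at these nucleotides overlapped. At 220 they were 0.887, 0.976, 0.844 and 0.909% in control and 0.635, 0.960, 0.539 and 0.987% in Rnmt cKO, so the lowest mock values and the highest PSU scores were in the same animals, Rnmt cKO 1 and 3. The interaction of genotype and CMC, which asks whether the CMC effect itself differed, was 0.50 ± 0.21 at 220 and 0.32 ± 0.20 at 222 on the log2 scale (edgeR, adjusted p = 0.785 for both). For 34, 109 and 119 the log2 change in CMC termination between genotypes lay between -0.03 and 0.02, with SE of 0.09 to 0.11.

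**Figure D4:**
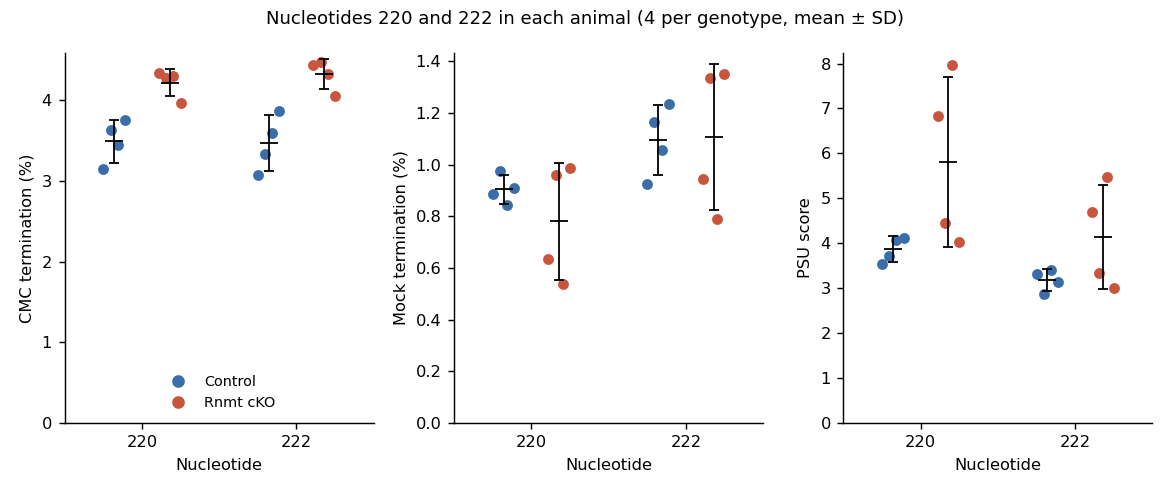
CMC termination (left, percent), mock termination (middle, percent) and PSU score (right) at nucleotides 220 and 222 in each animal, control in blue and Rnmt cKO in red, with black bars for the mean ± SD of 4 animals. The genotypes are apart in CMC termination, 3.07 to 3.87% against 3.97 to 4.47% over both nucleotides, and overlap in mock termination and PSU score.

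Over the whole domain the interaction was called at 0 of 382 positions (edgeR; 0 of 4026 in all, 0%), with 29 at an unadjusted p under 0.05 (7.59%, against 6.06% of all positions). DESeq2 called 0 in the domain, with 10 at an unadjusted p under 0.05, and 11 of 4026 in all (0.273%). At 611 the interaction was -0.43 ± 0.18 (edgeR, adjusted p = 0.785).

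Strong stops in mock libraries, which are present without CMC, were a second set of members. Per the study's methods the RNA was fragmented before reverse transcription. A read start can therefore mark a stop of reverse transcriptase or the end of a fragment. The counts do not tell these apart, and which applied was not tested. The 5 strongest were at nucleotides 486 (28.5% on average over the 8 mock libraries), 159 (16.5%), 578 (15.1%), 268 (11.6%) and 592 (11.1%). Without Control 1 the means were 27.0, 15.9, 15.2, 10.0 and 9.81%. The next 7, named after their values were seen, were 166, 207, 99, 519, 598, 27 and 116, down to 6.19%. The nucleotide 5′ of the stop was A at 7 of the 11 that could be read. As background, the adenosines at 27, 99, 159 and 166 and the uridine at 116 are known 2′-O-methylated nucleotides of mammalian 18S rRNA, a modification of the ribose. These sequences are shown because they carry the strongest stops.
Nucleotide 27, chr17:39846369-39846389, plus strand: ccagtagcatAtgcttgtctc
Nucleotide 99, chr17:39846441-39846461, plus strand: cgaatggctcAttaaatcagt
Nucleotides 159 and 166, chr17:39846501-39846528, plus strand: aactgtggtaAttctagAgctaatacat
Nucleotide 486, chr17:39846833-39846853, plus strand: gcaggcgcgcAaattacccac
Nucleotide 578, chr17:39846925-39846945, plus strand: tccactttaaAtcctttaacg
Nucleotide 592, chr17:39846939-39846959, plus strand: tttaacgaggAtccattggag

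The mock library of Control 1 was the highest of 8 at 10 of these 12 stops, and at 9 of them Rnmt cKO 1 came next. The 12 were ranked on means that include the Control 1 library, which favoured stops high in it, and its rank at other positions was not counted. At 27 its termination was 28.1%, against 6.05, 5.82 and 5.74% in Control 2 to 4, while Rnmt cKO 1 to 4 had 8.29, 3.12, 2.70 and 4.16%. The mean mock termination at 27 was 8.00% with this library and 5.13% without it. At 486 it was 39.4%, against 28.4, 28.3 and 28.6% in the other controls and 36.6, 22.9, 19.2 and 24.7% in Rnmt cKO. The CMC library of Control 1 was the lowest of the controls at 27, with 3.25% against 3.40 to 4.87%. At 159 and at 99 CMC termination was below mock in 8 of 8 animals, with log2 changes of -0.34 ± 0.08 and -0.46 ± 0.11 (edgeR, adjusted p = 0.00896 and 0.0149). As a share of the window, termination also moves with other stops in the window that change with CMC. Both calls were lost with TMM library sizes (-0.22 and -0.44, adjusted p = 0.0999 and 0.109) and with a window of 30 nt (-0.27 and -0.30, adjusted p = 0.0507 and 0.0559), and the call at 99 also without the animal as a block (adjusted p = 0.0515).

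**Figure D5:**
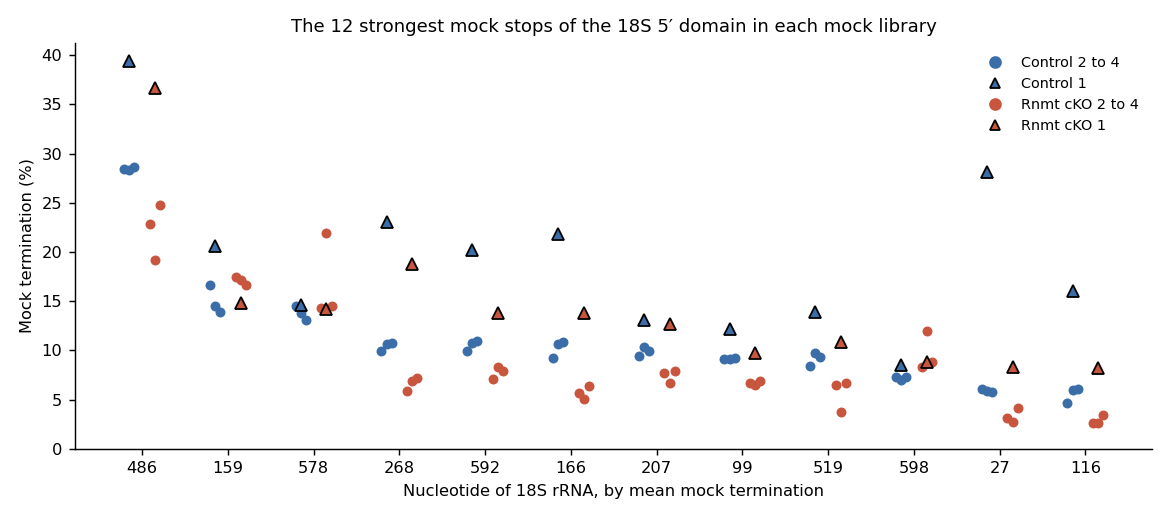
Mock termination in percent (vertical axis) of each of the 8 mock libraries at the 12 strongest mock stops of the 18S 5′ domain (horizontal axis, ordered by mean), control in blue and Rnmt cKO in red, with triangles for the animals numbered 1. The blue triangle, Control 1, is the highest point at 10 of 12 stops, which were chosen on means that include this library. At 27 it stands at 28.1% against 5.74 to 6.05% in the other controls.

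Mock termination was compared between genotypes at 3985 positions, of which 383 lay in the domain. None was called (edgeR, 0%), and 20 of the 383 had an unadjusted p under 0.05 (5.22%, against 6.22% in all). DESeq2 called 1, nucleotide 176, higher in Rnmt cKO, where it called 9 of 3985 in all (0.226%). Same-numbered mock libraries deviated together from their genotype means, and with the number as a replicate block edgeR called 6 positions in the domain, all lower in Rnmt cKO, where the share over all positions in that direction was 1.00%. They were nucleotides 100, 116, 165, 166, 208 and 511, with log2 changes of -0.69, -0.95, -0.60, -0.80, -0.65 and -0.96 (edgeR with the block, adjusted p = 0.0165 to 0.0424). Neighbours 165 and 166 share most of their reading window, so the 6 are not independent. Without the 2 animals numbered 1 these 6 were called too, among 13 lower and 2 higher in the domain (2.26% and 0.326% of all 3985 positions), although the numbers 2 to 4 alone did not deviate together.

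At nucleotide 166 the mock termination was 21.8, 9.23, 10.6 and 10.8% in Control 1 to 4 and 13.8, 5.66, 5.02 and 6.40% in Rnmt cKO 1 to 4. Each Rnmt cKO animal was below the control of the same number, and the genotypes overlapped only through Rnmt cKO 1. The same order in all 4 pairs held at 9 of the 12 strong mock stops, the exceptions being 159, 578 and 598. How often it held over all tested positions was not counted, so the 9 are no result about these stops. The pairs are different animals matched by number alone, and the main test called 0 of the 383 domain positions. In the CMC libraries none of the 12 stops had that order in all 4 pairs, and at 166 they read 10.2, 10.5, 8.79 and 7.07% in control and 8.41, 2.92, 7.78 and 10.1% in Rnmt cKO. The interaction was called at none of these positions.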

How the data were processed

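Ψ-seq libraries were compared in 4 groups of 4 (control and Rnmt cKO, CMC and mock), by GEO's labels. Per the study's methods, the authors took out the 10 nt random barcode with umi_tools, trimmed with cutadapt, aligned with bowtie2 to custom rRNA sequences, removed PCR duplicates and discarded secondary and low-quality alignments. The deposited files hold the count of read starts per position, not normalised. Coverage is not in them, so the read starts in the 65 nt ending at a position (75 cycles less the barcode) stood in for it, and terminations are lower bounds. Every window of the domain held at least 3419 read starts.

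Counts were tested with edgeR 4.0.16, with the log of the window count as offset, at positions whose mean termination reached 1%, leaving out the first of each rRNA. PSU scores were tested with limma 3.58.1. The threshold was an adjusted p of 0.05. A score was needed in 3 animals for a call. The alternatives were DESeq2 1.42.0, TMM, limma on log2 termination (0.1 percent added), a filter of 10 read starts, windows of 50, 40 and 30 nt, other thresholds and blocks, and leaving out each animal (R 4.3.3, Python 3.11.15, matplotlib 3.10.9). The TMM setting used library sizes in place of the window count, so it compared scaled read starts and not terminations. Its library size was the sum over the tested positions, which for CMC termination between genotypes were the 70 called sites alone. On simulated data, with changes of a factor of 2, the CMC effect test recovered 98.5% of 200 changed positions among 4026 and the mock test 87% among 3985. The interaction test recovered 77.5% among 4026, and the tests of CMC termination and PSU score recovered 10 of 10 among 70. Unchanged positions called were 10, 4 and 6 in the first 3 tests, 1 for CMC termination and 2 for PSU score. Smaller changes were not simulated, so these recoveries do not apply to differences such as the log2 0.27 and 0.31 at 220 and 222.

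Nucleotides named were all called ones, those nearest the thresholds, the 5 strongest mock stops, any called for genotype, the 3 of smallest p lower in CMC and the 3 uncalled of largest change higher in CMC. Members and rules were chosen with earlier results of these data known.

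Same-numbered animals of both genotypes were checked for pairing. Across the 4026 positions the deviations of log2 mock termination from the genotype means correlated with r = 0.645, 0.408, 0.154 and 0.373 for numbers 1 to 4. Those of the log2 PSU score over 70 sites correlated with r = 0.578, 0.127, 0.368 and 0.167. Without number 1 the mock values were 0.0281, -0.0701 and 0.173, and -0.0265, -0.122 and -0.0259 in the domain. The PSU score was not checked without number 1. Pairing by number was thus not established, and the main genotype tests had no block by number, which was an alternative only. For CMC termination all 4 were below 0. Within groups, all 24 pairs of libraries differed over the domain by more than sampling noise (chi-square per degree of freedom of 1.18 or more).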

Additional observations from a re-analysis of the deposited data

Results flagged for a closer look

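Dixon's test was applied to 92 groups of 4 animals or libraries, for the 10 sites, the 5 strongest mock stops and 3 library measures. It picked out 12 groups, where chance gives about 4.6 at 1 in 20, and 5 of the 12 concern the mock library of Control 1. The groups are not independent, since PSU scores reuse the terminations and the mock stops were ranked on these libraries. Whether 12 exceeds 4.6 was therefore not tested. In that library the mock termination was 39.4% at nucleotide 486 against 28.3 to 28.6% in the other controls, 23.0% at 268 against 9.91 to 10.8%, and 20.2% at 592 against 9.89 to 10.9%. Its share of 18S read starts in the domain was 32.8% against 38.9 to 39.6%, and its median termination over the domain 0.859% against 1.16% in each of the other controls. The mock library of Rnmt cKO 1 was apart at 268, with 18.7% where the others of its genotype had 5.89 to 7.24%.

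The mock library of Rnmt cKO 3, the shallowest, had 22.0% at nucleotide 578 against 14.2 to 14.5% in the others of its genotype, and the first position took 5.68% of its domain read starts against 4.09 to 4.16%. In CMC libraries Rnmt cKO 3 was low at 486, with 21.2% against 25.2 to 26.0%. Rnmt cKO 4 was low at 220, with 3.97% against 4.28 to 4.34%, and Control 2 was low at 34, with 6.97% against 7.67 to 7.81%. The PSU score of Rnmt cKO 2 at 109 was 9.51 against 6.63 to 7.04 in the others.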

How the results depend on the processing

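The 7 called sites became 2 (34 and 611) with a CMC threshold of 5%, 9, 9 and 10 with windows of 50, 40 and 30 nt, and 6 to 8 when each animal was left out. The 23 positions lower in CMC became 8 with TMM and 55 with a window of 30 nt, and 10 to 48 without an animal, the most without Control 1 and 13, 12, 10, 15 and 15 without Control 2, 3 and 4 and Rnmt cKO 1 and 4. The 54 higher ones stayed at 40 to 72, and T at 82.4 to 88.4% of those readable (chosen after seeing the data). The median log2 genotype difference of the 7 sites in CMC libraries was 0.0232 in termination and -0.0829 in read starts with TMM. For CMC termination between genotypes 2 sites were called by DESeq2, and 0 to 2 without an animal (2 without Rnmt cKO 4). For mock termination DESeq2 called 1. The replicate block gave 6 lower, 13 lower and 2 higher without number 1 (chosen after seeing the data), made no call for PSU score or CMC termination in the domain, and by number gave 55 higher and 25 lower for the CMC effect. With the block the adjusted p at 220 and 222 in CMC termination was 0.425 and 0.226. The causes were not tested.

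Small genotype differences changed sign. In PSU score this was so at 34 (0.171, to -0.709 with a window of 30 nt), 93 (-0.624, to 0.219 without Control 1), 109 (-0.0525) and 119 (0.0486, to -0.0132 on the log2 scale and -0.0208, -0.342 and -0.655 with windows of 50, 40 and 30 nt). Without 1 animal these ranged from -0.317 to 0.668, -1.08 to 0.219, -0.732 to 0.380 and -0.810 to 0.499, with -0.0933 at 34 without Control 2. With TMM the log2 difference in CMC read starts was -0.0829, -0.0330 and -0.157 at 34, 93 and 109. Without 1 animal the log2 CMC termination at these ranged from -0.0288 to 0.0508, -0.0342 to 0.174, -0.0593 to 0.118 and, at 119, -0.107 to 0.0887. In mock libraries the log2 difference in read starts was -0.0579 at 159 and -0.0914 at 578 with TMM. The log2 mock termination ranged from -0.0588 to 0.139 at 159 without 1 animal. Of 588 alternative values 534 kept direction and call. At the nucleotides described, the denominators of the PSU score rest on as few as 30 mock read starts.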
